A study of Mus musculus with 12 samples.

Results

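Slc45a3, Tcim, Fam107a, Rgcc, Fam89a, Selenop, Sult1a1 and Smpd3 are 8 of the 20832 genes measured here, and they had been grouped as strong dexamethasone (Dex) targets whose response depends on the genotype. The 8 genes were chosen on measured values of these same arrays, namely their Dex changes in each genotype and the difference between those changes. These contrasts are therefore given for the 8 genes as a description, with no test. The array carried 11 probes for the 8 genes, found by gene symbol, older name or, for Fam107a, which the array design lists under a clone name, by RefSeq accession. On each of the 12 arrays the scanner software called all 11 probes well above background, and none was saturated.

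The cells were mouse embryonic fibroblasts (MEFs), which are cultures of connective tissue cells, made from E12.5 embryos on a C57Bl/6 background. They were either wild type (WT) or homozygous for the GR-C3 knockin, in which exon 2 of Nr3c1, the glucocorticoid receptor gene, keeps the ATG of the GR-C3 isoform while the start codons of the other translational isoforms are mutated to ATC. The knockin allele came from 1 embryonic stem cell clone and its hygromycin cassette had been removed with a Flp-deleter strain. Both genotypes received vehicle or 100 nM Dex, a synthetic glucocorticoid, for 6 hours, so that each genotype had 3 vehicle arrays and 3 Dex arrays, in 4 groups. The labels speak of biological replicates without saying whether they were separate embryos or cultures, so the p-values measure only the spread between these samples.

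The glucocorticoid receptor is a transcription factor that enters the nucleus when it binds its steroid, and binds DNA as a dimer at palindromes built from the half-site AGAACA. Its translational isoforms arise from different start codons of the same messenger RNA, so they differ in the length of the N-terminal region and share the domains that bind DNA and steroid. The 8 genes described here have no common pathway. They encode a solute carrier (Slc45a3), a secreted selenium carrier (Selenop), enzymes of sulfation (Sult1a1) and of sphingomyelin breakdown (Smpd3), regulators of actin, the cell cycle and Wnt signalling (Fam107a, Rgcc and Tcim), and Fam89a.

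A level below is the log2 signal of a gene's probe relative to the 75th percentile of its array, and a change is a difference of such levels with its standard error, written ±. That percentile lay between signals of 832 and 1713, and 70.7 to 78.4% of the probes were well above background. Markers of fibroblasts were well above background on all 12 arrays for 10 of 10 genes, among them Col1a1, Col1a2 and Vim. So were 6 of 6 macrophage markers, and their summed signal, in multiples of the array's 75th percentile, was 7.31 to 8.97 in WT with vehicle and 6.92 to 7.96 with Dex, and in GR-C3 6.46 to 6.94 with vehicle and 5.39 to 5.86 with Dex. Most of that sum was Lyz2, with mean levels of 2.92, 2.73, 2.54 and 2.27 in this order of groups. The other macrophage markers had means of -5.54 to -1.35. Under vehicle, Csf1r and Cd14 had higher means in GR-C3 than in WT, and Ptprc, Adgre1 and Cd68 had lower ones. The summed signal of 5 epithelial markers was 0.668 to 0.77, 0.52 to 0.717, 2.33 to 2.58 and 1.84 to 1.97 in the same order of groups, with Krt8, Krt18 and Krt5 above background on all 12 arrays, Epcam on 2 and Cdh1 on none. The mean level of Krt18 was -1.27 in WT with vehicle and -1.91 with Dex, and 1.04 and 0.57 in GR-C3. All 4 astrocyte markers were above background on all 12 arrays, with a summed signal of 0.553 to 1.12, 0.731 to 0.852, 1.1 to 1.3 and 1.15 to 1.27 in that order of groups. Of the endothelial markers Tek and Vwf were above background on all 12 arrays and Pecam1, Cdh5 and Tie1 on none. Of the hepatocyte markers Afp and Apob were so on all 12, Apoa1 on 10, Alb on 1 and Ttr on none. The part of other cell types in the differences between groups was not tested, and in such bulk RNA fewer cells that express a gene and less RNA per cell cannot be told apart.

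In the 8 genes, 1 array was unlike the rest of its group, the array labelled WT vehicle replicate 1. On the scale from the mean of WT vehicle replicates 2 and 3, taken as 0%, to the WT Dex mean, taken as 100%, it lay at 93.3% for Slc45a3, 95.4% for Fam107a, 103% for Sult1a1 and 107% for Rgcc. It lay at 62.3% for Smpd3, 53.7% for Tcim, 45.03% for Fam89a and 15.6% for Selenop. This array was the only one on its slide and the only one of its scan day. For the first 4 of these genes its levels go against its label, and the labels do not settle whether the label holds. This doubt bears on every WT vehicle mean and every WT Dex change taken over 12 arrays. Changes that rest on this array are given with all 12 arrays and with the 11 arrays without it, a choice made after seeing the data.

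**Figure D1:**
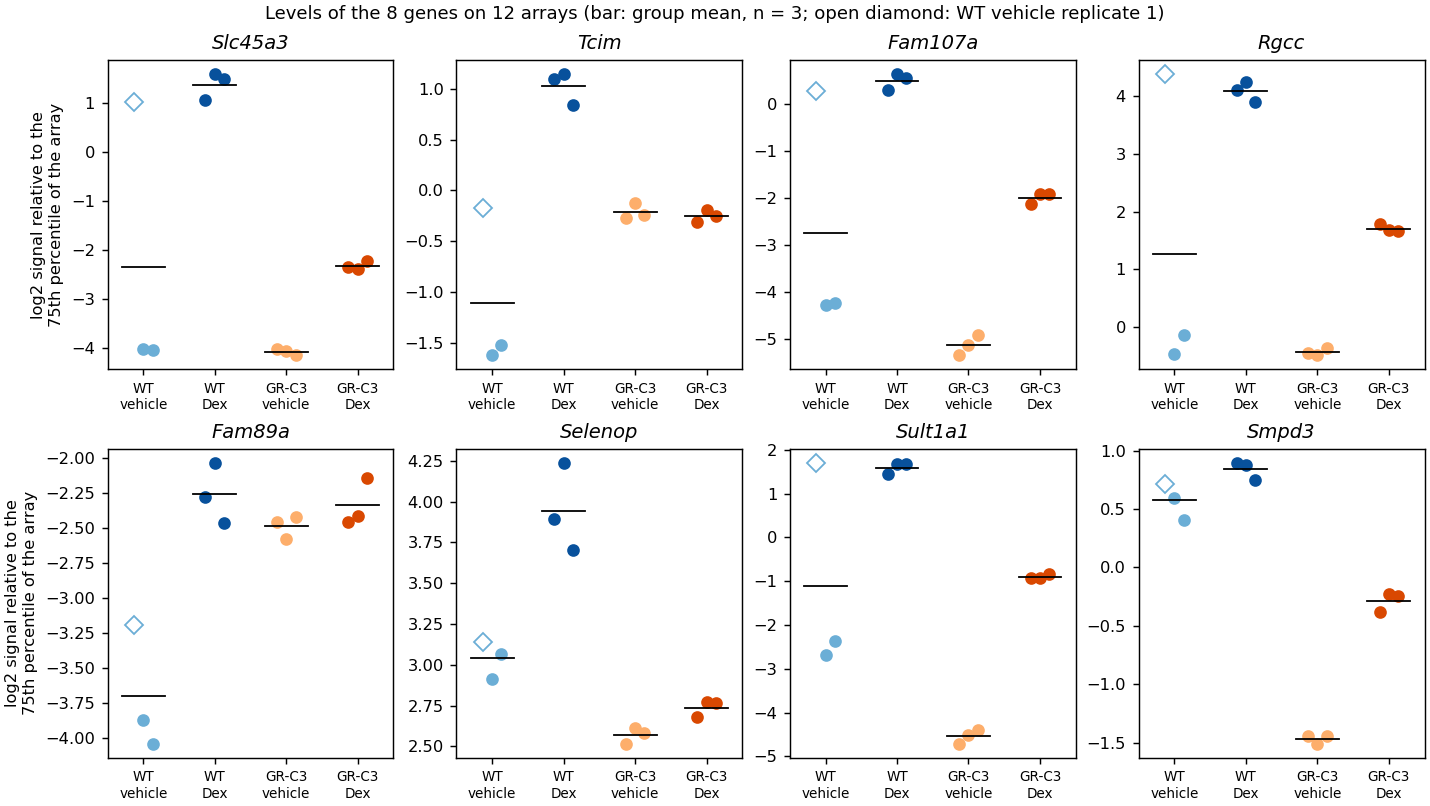
Each panel plots 1 of the 8 genes: the vertical axis is the log2 signal over that of the array's 75th percentile, the points are the 12 arrays in their 4 groups, bars are group means (n = 3) and the open diamond is WT vehicle replicate 1. For Slc45a3 the diamond lies at 1.004, beside the WT Dex arrays at 1.05 to 1.58, while the other 2 WT vehicle arrays lie at -4.01 and -4.05.

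The label of strong Dex targets with genotype-dependent induction comes from these same contrasts, so they cannot test it. The 8 genes differed in the size of their Dex changes. The change in WT was above 1 log2 unit for 6 of the 8 genes, with 12 arrays and with 11, while Selenop and Smpd3 stayed under it. The change in GR-C3 was above 1 log2 unit for 5 genes, namely Slc45a3, Fam107a, Rgcc, Sult1a1 and Smpd3. The change was larger in WT for 6 of 8 genes with 12 arrays, and for 7 of 8 with 11. Smpd3 had the larger change in GR-C3 in both, and Sult1a1 in the fit of 12 arrays alone. With limma, a linear model of all genes with moderated variances, and a Benjamini-Hochberg adjusted p under 0.05 as the call, 25 of 20832 genes were called for Dex in WT (0.12%), 22 for Dex in GR-C3 (0.106%) and 0 for the difference between the genotypes (0.0%, with 1269 genes at an unadjusted p under 0.05). Without WT vehicle replicate 1 these counts were 2503 (12%), 720 (3.46%) and 241 (1.16%). Nothing is read from these shares for the 8 genes, which were chosen on the same contrasts.

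Slc45a3, also called prostein, belongs to the SLC45 family of putative sugar transporters and is best known from the prostate. Its probe lies at chr1:131877630-131877689 of mouse build mm7, the build of the array design. On the WT vehicle arrays its level was 1.004, -4.01 and -4.05 in replicates 1, 2 and 3, and the WT Dex arrays were at 1.05, 1.58 and 1.48. The GR-C3 arrays were at -4.03, -4.05 and -4.14 with vehicle and -2.35, -2.39 and -2.22 with Dex. The GR-C3 Dex arrays thus lay above every GR-C3 vehicle array and below every WT Dex array. The Dex change in WT was 5.40 ± 0.15 with 11 arrays, a 42.1-fold difference, and 3.72 ± 1.03 with 12. In GR-C3 it was 1.75 ± 0.13 in the fit of 11 arrays, a 3.37-fold difference. The GR-C3 change was 32.5% of the WT change on the log2 scale with 11 arrays and 47.1% with 12. With normexp background correction and 11 arrays the GR-C3 change was 1.13. This value is not to be set against the WT change above, which was fitted without that correction. Within the slides that hold both treatments of a genotype, the change was 5.08 in WT (WT vehicle replicates 2 and 3 and WT Dex replicate 1) and 1.82 in GR-C3 (vehicle replicate 3 and all Dex arrays).

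Selenop is a secreted selenoprotein that carries selenium from the liver to other tissues, where the receptors Lrp8 and Lrp2 take it up. Its probe lies at chr15:3106281-3106340 (mm7). The level was 3.14, 2.92 and 3.07 in WT vehicle and 3.89, 4.24 and 3.71 in WT Dex. In GR-C3 the level was 2.52, 2.62 and 2.59 with vehicle and 2.68, 2.77 and 2.77 with Dex. Here WT vehicle replicate 1 lay near the others of its group, and every GR-C3 array lay below every WT array, whatever the treatment. The Dex change was 0.90 ± 0.13 in WT with 12 arrays and 0.95 ± 0.14 with 11, a 1.94-fold difference. It was 0.17 ± 0.13 in GR-C3, and the 3 GR-C3 Dex arrays were all above the 3 vehicle arrays.

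Sult1a1 is a cytosolic sulfotransferase that moves a sulfonate group from the donor PAPS to phenols, including drugs and hormones. Its probe lies at chr7:122769649-122769708 (mm7). The level was 1.71, -2.68 and -2.36 in WT vehicle and 1.44, 1.67 and 1.67 in WT Dex, so replicate 1 of the vehicle group was the highest WT array. The GR-C3 arrays were at -4.71, -4.50 and -4.40 with vehicle and at -0.93, -0.93 and -0.84 with Dex. GR-C3 was below WT with either treatment, with no overlap, although its own Dex change was 3.64 ± 0.12 in the fit of 11 arrays, a 12.46-fold difference. In WT the change was 4.11 ± 0.13 with 11 arrays, which is 17.3-fold, and 2.70 ± 0.86 with 12. The sign of the difference between the genotypes turned with that 1 array: the GR-C3 change minus the WT change was 0.94 ± 1.22 with 12 arrays and -0.47 ± 0.18 with 11 (-1.22 with normexp). Within slides the change was 3.96 in WT and 3.498 in GR-C3.

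Smpd3 encodes neutral sphingomyelinase 2, which splits sphingomyelin into ceramide and phosphocholine. The probe with the highest mean of its 3 probes lies at chr8:104851745-104851804 (mm7). Its level was 0.71, 0.60 and 0.41 in WT vehicle and 0.90, 0.88 and 0.75 in WT Dex. The GR-C3 arrays were at -1.44, -1.51 and -1.44 with vehicle and at -0.38, -0.23 and -0.25 with Dex. The Dex change was 0.27 ± 0.10 in WT with 12 arrays and 0.34 ± 0.10 with 11, against 1.18 ± 0.09 in GR-C3 (a 2.26-fold difference, SE of the 11-array fit). This was the gene with the larger Dex change in GR-C3, and by this probe its GR-C3 Dex arrays still lay below all 6 WT arrays. The other probes of the gene, at chr8:104853755-104853814 and chr8:104856244-104856442 (the latter spans 199 bases of genome), gave GR-C3 changes of 0.98 and 0.67 and WT changes of 0.40 and 0.46 with 11 arrays. The direction was the same by all 3 probes, and the difference between the genotypes was smaller by the other probes, 0.58 ± 0.15 and 0.22 ± 0.22, than by the first, 0.84 ± 0.13. Averaged over the 3 probes it was 0.55. By the probe that spans 199 bases, the GR-C3 Dex arrays were at -2.595, -2.588 and -2.443. They lay above WT vehicle replicates 2 and 3, at -2.827 and -2.796.

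Fam107a, known as DRR1 or TU3A, encodes an actin-associated protein known as a stress-responsive glucocorticoid target in the brain. Its probe lies at chr14:6106017-6106076 (mm7). The level was 0.28, -4.27 and -4.24 in WT vehicle and 0.30, 0.64 and 0.55 in WT Dex. In GR-C3 the level was -5.35, -5.13 and -4.93 with vehicle and -2.13, -1.92 and -1.92 with Dex. Both genotypes were thus higher with Dex, apart from the 1 WT vehicle array that lay just below the WT Dex arrays. The WT change was 4.75 ± 0.15 with 11 arrays, or 27.0-fold, and 3.24 ± 0.93 with 12. In GR-C3 the change was 3.15 ± 0.13 in the fit of 11 arrays, or 8.85-fold, which is 66.2% of the WT change on the log2 scale with 11 arrays and 97.1% with 12. With normexp background correction and 11 arrays the GR-C3 change was 1.87. The WT change above was fitted without that correction, so the 1.87 is not to be set against it.

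Rgcc, also called RGC-32, binds the kinase Cdk1 and is known as a complement-induced regulator of the cell cycle. Its probe lies at chr14:73969599-73969658 (mm7). The level was 4.39, -0.46 and -0.14 in WT vehicle and 4.10, 4.25 and 3.90 in WT Dex. In GR-C3 it was -0.46, -0.49 and -0.36 with vehicle and 1.79, 1.68 and 1.66 with Dex. Replicate 1 of WT vehicle was again the highest of the WT arrays, and the GR-C3 Dex arrays lay above the GR-C3 vehicle arrays and WT vehicle replicates 2 and 3, and below the other 4 WT arrays. With 11 arrays the Dex change was 4.39 ± 0.13 in WT (20.9-fold) and 2.14 ± 0.12 in GR-C3 (4.41-fold), and with 12 the WT change was 2.82 ± 0.96.

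Tcim, also called TC1, encodes a small protein that binds Cby1, an inhibitor of beta-catenin. The probe used lies at chr8:23223615-23223674 (mm7). The level was -0.18, -1.62 and -1.51 in WT vehicle and 1.09, 1.14 and 0.84 in WT Dex. In GR-C3 the vehicle arrays were at -0.27, -0.12 and -0.24 and the Dex arrays at -0.31, -0.20 and -0.25, so the treatments overlapped. The GR-C3 arrays of both treatments lay between WT vehicle replicates 2 and 3 on one side and WT Dex on the other. The Dex change was 2.59 ± 0.11 in WT with 11 arrays (6.02-fold), 2.13 ± 0.30 with 12, and -0.04 ± 0.10 in GR-C3. A second probe, at chr8:23223114-23223173, gave 1.83 ± 0.16 in WT with 11 arrays and 0.09 ± 0.14 in GR-C3.

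The probe of Fam89a lies at chr8:123327625-123327684 (mm7). The level was -3.19, -3.87 and -4.04 in WT vehicle and -2.28, -2.04 and -2.46 in WT Dex. The GR-C3 arrays were at -2.46, -2.58 and -2.42 with vehicle and at -2.46, -2.41 and -2.15 with Dex, which overlap with each other and with WT Dex. The WT change was 1.69 ± 0.14 with 11 arrays, or 3.23-fold, and 1.44 ± 0.20 with 12, and the GR-C3 change was 0.15 ± 0.13.

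**Figure D2:**
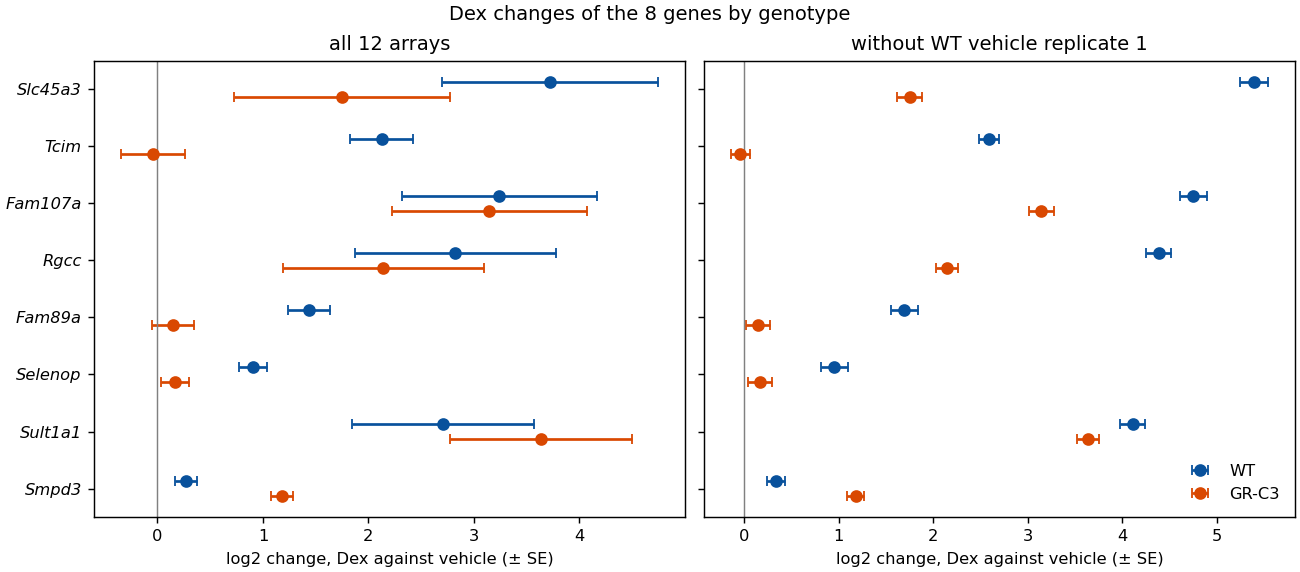
The horizontal axis is the log2 change of Dex against vehicle (points) with its SE (bars) for WT and GR-C3, on the left with all 12 arrays and on the right without WT vehicle replicate 1. The WT value of Slc45a3 is 3.72 on the left and 5.40 on the right, and Smpd3 is the gene with the larger GR-C3 value in both panels, joined on the left by Sult1a1.

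Under Dex, a comparison that holds no vehicle array, all 8 genes had a lower mean in GR-C3 than in WT by the probe used. By that probe the arrays of the genotypes did not overlap for 7 of them. The difference was -3.69 for Slc45a3, -2.49 for Fam107a, -2.49 for Sult1a1, -2.38 for Rgcc, -1.28 for Tcim, -1.21 for Selenop, -1.13 for Smpd3 and -0.08 for Fam89a, whose arrays overlapped. By the other probes of Smpd3 the difference was -0.97 and -0.19, and by the latter the arrays of the genotypes overlapped. The second probe of Tcim gave -0.72. Over all 20707 genes with a value on every array, the arrays did not overlap for 50.7%, the GR-C3 mean was lower for 38.8%, and the median difference was 0.13. This contrast is tied to those that chose the genes, so it is a description and nothing is read from these shares. Neither treatment had both genotypes on 1 slide, so the slide and the genotype cannot be told apart within a treatment.

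The levels of the 8 genes over the 12 arrays were also compared with each other. Slc45a3, Fam107a, Rgcc and Sult1a1 followed each other with Pearson correlations of 0.943 to 0.988. Smpd3 and Sult1a1 correlated at 0.851, Selenop and Slc45a3 at 0.848, Tcim and Fam89a at 0.806, and Fam89a and Smpd3 at -0.248. The 8 genes thus did not divide into clearly separate shapes. All of these arrays share the same 4 groups and the odd WT vehicle array, so no link between genes is read from the correlations. By the same measure, the gene outside the 8 that was most like each of 7 of them was Notch4 for Slc45a3 (r = 0.994), Serpina3n for Fam107a (0.994), Gclc for Sult1a1 (0.987), Medag for Smpd3 (0.980), Rnf141 for Selenop (0.975), Wnt11 for Tcim (0.927) and Pgm5 for Fam89a (0.901).

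Levels under vehicle show how the genotypes differed before Dex. The vehicle arrays entered the Dex changes on which the genes were chosen, so these differences are also a description, with no test. Over all genes the median difference was 0.12 with 12 arrays and 0.14 with 11, and each value below is relative to the array's 75th percentile and not to that shift.

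For Smpd3, Sult1a1, Selenop and Fam107a every GR-C3 vehicle array lay below every WT vehicle array, and for Fam89a every GR-C3 vehicle array lay above. The share of all genes separated in this way under vehicle was not computed, so nothing is read from the separation. The 50.7% given for Dex comes from other arrays and does not stand in for that share. Smpd3 differed by -2.04 ± 0.10 with 12 arrays and by -1.97 ± 0.10 with 11, a 3.91-fold difference in the second fit. Its other probes differed by -1.55 ± 0.12 and -0.40 ± 0.16 with 11 arrays, so the size depended on the probe. Sult1a1 differed by -3.43 ± 0.86, and by -2.02 ± 0.13 without WT vehicle replicate 1, where the difference is 4.05-fold. Selenop differed by -0.47 ± 0.13 with 12 arrays and by -0.42 ± 0.14 with 11. Fam89a differed by 1.21 ± 0.20 and by 1.47 ± 0.14 with 11 arrays.

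The size depended on WT vehicle replicate 1 for Tcim, Fam107a, Slc45a3 and Rgcc, as it did for Sult1a1 above. The difference of Tcim was 1.36 ± 0.11 with 11 arrays and 0.89 ± 0.30 with 12. By the second probe of Tcim it was smaller, 1.02 ± 0.16 with 11 arrays and 0.50 ± 0.34 with 12. The difference of Fam107a was -0.88 ± 0.15 with 11 arrays and -2.39 ± 0.93 with 12, and -0.27 with normexp background correction and 11 arrays. Slc45a3 and Rgcc differed by -0.04 ± 0.15 and -0.14 ± 0.13 with 11 arrays, and by -1.72 ± 1.03 and -1.70 ± 0.96 with 12.

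**Figure D3:**
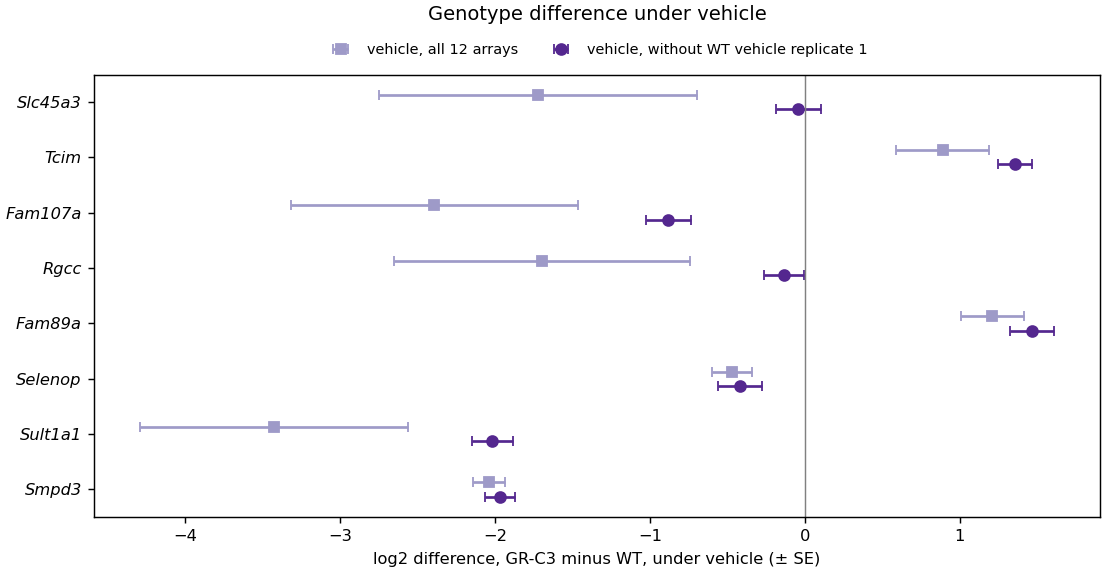
The horizontal axis is the log2 level in GR-C3 minus that in WT under vehicle, with its SE, for all 12 arrays (squares) and without WT vehicle replicate 1 (circles). Smpd3 lies near -2 in both fits, Tcim and Fam89a lie above 0, and Slc45a3 moves from -1.72 to -0.04 when that array is left out.

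Relatives of the 8 genes, meaning paralogs and genes of the same pathway, were listed by function and not by how they moved: 79 genes in 6 lists, of which 72 were tested. With 12 arrays none was called for Dex in WT, Dex in GR-C3 or the difference (11, 5 and 3 of 72 had an unadjusted p under 0.05), in fits that called 0.12%, 0.106% and 0.0% of all genes. Without WT vehicle replicate 1, 9 of 72 were called for Dex in WT (5 higher and 4 lower, against 12% of all genes), 3 for Dex in GR-C3 (1 higher and 2 lower, 4.17% against 3.46%) and 1 for the difference (1.39% against 1.16%). These shares are near the background. The count for Dex in WT with 11 arrays was 4 without WT vehicle replicate 2, 4 without replicate 3 and 17 without WT Dex replicate 1, and it was 4 with the slide as a block and 3 with the WT arrays alone.

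Among 24 tested genes of sphingomyelin and ceramide turnover, the pathway of Smpd3, Sphk1 was called higher with Dex in both genotypes and Asah2 lower in WT, all with 11 arrays. Sphk1 phosphorylates sphingosine, the base that ceramidases release from ceramide. Its level was 4.86, 2.33 and 2.10 in WT vehicle, 4.47, 4.95 and 4.52 in WT Dex. In GR-C3 the vehicle arrays were at 3.00, 3.18 and 2.99 and the Dex arrays at 4.25, 4.24 and 4.26. The first WT vehicle array lay among the WT Dex arrays. With 11 arrays Sphk1 rose by 2.43 ± 0.15 in WT (limma adjusted p = 8.31e-06) and by 1.19 ± 0.13 in GR-C3 (0.00113), and the GR-C3 change was smaller by 1.24 ± 0.20, a fitted difference of -1.24 (0.0198). With 12 arrays the changes were 1.55, 1.19 and -0.36, and none was called (limma adjusted p = 0.216, 0.435 and 0.956). The difference between the genotypes was not called with the slide as a block (-0.99, limma adjusted p = 0.279), nor without WT vehicle replicate 2 (0.0679) or 3 (0.123), GR-C3 vehicle replicate 2 (0.0621), or GR-C3 Dex replicate 2 (0.0619) or 3 (0.0576). Asah2, a neutral ceramidase, had a WT change of -0.61 ± 0.15 with 11 arrays (limma adjusted p = 0.024), and the change in GR-C3 was 0.01 ± 0.13. With 12 arrays the WT change of Asah2 was -0.06 (0.947 by limma), with the mean over its probes -0.12 (0.859), with the slide as a block -0.31 (0.291). Its call was also lost with only the WT groups (0.11 by limma) and without WT vehicle replicate 2 or 3 or WT Dex replicate 2 or 3 (0.0564 to 0.198).

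Among 24 genes of selenium transport and selenoproteins, the setting of Selenop, 1 was called higher and 2 lower with Dex in WT with 11 arrays. Gpx3, the secreted glutathione peroxidase, rose by 1.03 ± 0.14 (limma adjusted p = 0.00117; 0.85 and 0.0858 with 12 arrays), and its GR-C3 change was 0.49 ± 0.13 (0.0689). Dio2, the deiodinase that activates thyroid hormone, was called lower in both genotypes, with changes of -0.54 ± 0.10 in WT (limma adjusted p = 0.00514) and -0.59 ± 0.09 in GR-C3 (0.00529). With 12 arrays these changes were -0.42 (limma adjusted p = 0.151) and -0.59 (0.0926). With 11 arrays the WT call was lost with only the WT groups (0.0782 by limma) and without WT vehicle replicate 3 (0.0819), and the GR-C3 call with the slide as a block (0.0501). Txnrd1, a thioredoxin reductase, changed by -0.47 ± 0.11 in WT (limma adjusted p = 0.023), and by -0.35 with 12 arrays (0.214). Its call was lost with the slide as a block (0.248 by limma), with only the WT groups (0.143) and without WT vehicle replicate 2 (0.198) or 3 (0.0852). The receptor Lrp8 was not called with Dex, with changes of -0.09 ± 0.10 in WT and 0.03 ± 0.09 in GR-C3. The difference between genotypes was called for none of the 24 genes, with 4 at an unadjusted p under 0.05 in limma.

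Among 14 tested sulfotransferases and genes of PAPS supply, the setting of Sult1a1, 3 were called higher and 1 lower with Dex in WT with 11 arrays. Sult5a1, a sulfotransferase, rose by 1.69 ± 0.22 (limma adjusted p = 0.00086), against a GR-C3 change of 0.67 ± 0.20 (0.105). With 12 arrays its WT change was 0.97 (limma adjusted p = 0.338), and with normexp and 11 arrays it was also 0.97 (0.00102). Its level on WT vehicle replicate 1 was -2.79, above the WT Dex arrays at -3.54, -3.18 and -3.10, while replicates 2 and 3 were at -4.96 and -4.97. Papss2, which makes PAPS, had a WT change of 0.45 ± 0.12 (limma adjusted p = 0.0427), and Sts, the steroid sulfatase, one of 0.49 ± 0.14 (0.0452). With 12 arrays these were 0.37 (limma adjusted p = 0.203) and 0.30 (0.391), and with the slide as a block and 11 arrays 0.24 (0.461) and 0.25 (0.497). Both calls were also lost with no filter on dim probes, with only the WT groups, and without any 1 of the other arrays except WT Dex replicate 1, and that of Sts with normexp (0.053 by limma). Slc35b3, a PAPS transporter, had a WT change of -0.42 ± 0.09 (limma adjusted p = 0.0145), and of -0.28 with 12 arrays (0.3). Its call was lost with the slide as a block (0.0864 by limma), with only the WT groups (0.137) and without WT vehicle replicate 2 (0.0571) or 3 (0.166). In GR-C3, Sult1c2 was called with a change of -1.54 ± 0.35 (limma adjusted p = 0.0469), with 1 of 3 Dex arrays well above background. With normexp its change was -0.37 (limma adjusted p = 0.359), and with 12 arrays -1.54 (0.122). Its call was also lost with no filter, with only the GR-C3 groups, and without any 1 of the other arrays except WT Dex replicate 1.

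**Figure D4:**
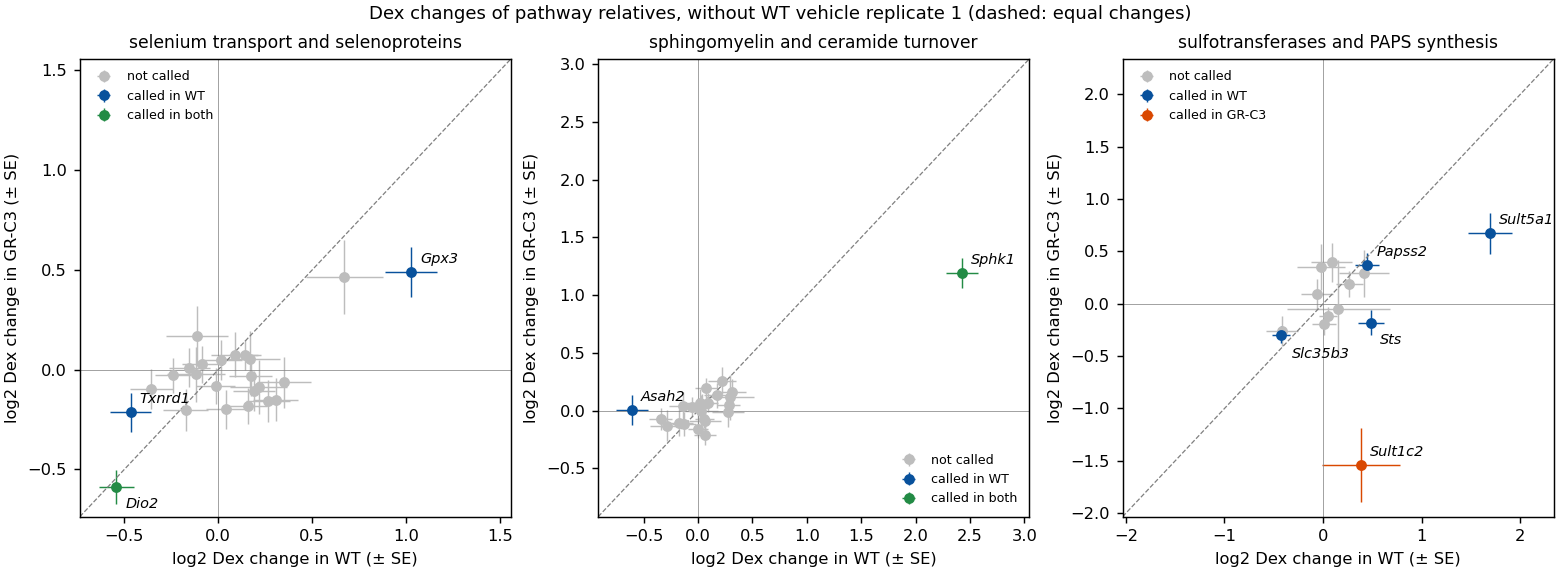
Each panel plots a list of relatives with the log2 Dex change in WT on the horizontal axis and in GR-C3 on the vertical axis, both with SE, from the 11 arrays without WT vehicle replicate 1; colours mark the limma calls and the dashed line marks equal changes. Sphk1 lies at 2.43 in WT and 1.19 in GR-C3, Dio2 lies near the dashed line, and most other genes cluster near 0.

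The Slc45, Fam107 and Fam89 paralogs were not called with Dex in either genotype. With 11 arrays the WT change was 0.41 ± 0.39 for Slc45a1, 0.45 ± 0.33 for Slc45a2 and 0.20 ± 0.11 for Slc45a4, and -0.35 ± 0.14 for Fam107b and 0.24 ± 0.12 for Fam89b. With 12 arrays these were 0.14, 0.65, 0.07, -0.32 and 0.10 in the same order. In GR-C3 these changes lay between -0.21 and 0.15. Of the 5 partners of Rgcc and Tcim, none was called with Dex: with 11 arrays Cdk1, the kinase that Rgcc binds, changed by -0.09 ± 0.12 in WT and Cby1, which Tcim binds, by 0.11 ± 0.10, and with 12 arrays both by 0.04.

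Under vehicle, 18 of the 72 relatives differed between the genotypes with 12 arrays (9 higher and 9 lower in GR-C3, 25.0% against 24.8% of all genes), and 21 with 11 (29.2% against 27.8%). The count was 8 with the slide as a block in either fit, and with 11 arrays it was 12 without WT vehicle replicate 2 and 10 without replicate 3. In the Rgcc and Tcim list 4 of 5 genes were called with 12 arrays: Plk1 (0.89 ± 0.14), Ccnb1 (0.68 ± 0.10) and Cdk1 (0.62 ± 0.13), which drive mitosis, were higher in GR-C3, and Cby1 (-0.48 ± 0.11) was lower, with limma adjusted p of 0.000885, 0.000896, 0.006 and 0.00755. In the sphingolipid list, Sptlc2 of ceramide synthesis (0.65 ± 0.09) and the ceramidase Acer2 (0.67 ± 0.20) were higher, and Smpdl3a, Sgms2, Asah1 and Cers4 were lower by differences of -0.42 to -0.63. In the selenium list Lrp8 (0.56 ± 0.10) and Txnrd1 (0.57 ± 0.13) were higher and Dio2 (-0.74 ± 0.12) was lower. In the sulfation list Sult1c1 (0.89 ± 0.23) and Slc35b3 (0.41 ± 0.13) were higher, and Sult4a1 (-0.93 ± 0.15), Papss2 (-0.62 ± 0.12) and Sts (-0.77 ± 0.17) were lower. All these differences are those with 12 arrays. With 11 arrays the calls of Slc35b3 (0.26 ± 0.09, limma adjusted p = 0.0576) and Cers4 (-0.39 ± 0.16, 0.0889) were lost. Called with 11 arrays alone were Fam89b (0.395 ± 0.116, limma adjusted p = 0.0304), Sphk1 (0.84 ± 0.15, 0.00265), Ugcg (0.68 ± 0.13, 0.00461), Sult5a1 (0.68 ± 0.22, 0.0443) and Asah2 (-1.038 ± 0.145, 0.000698).

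Promoter windows, the 250 bases before a transcription start in RefSeq (GRCm38.p6), were found for 6 of the 8 genes (11 windows), with Tcim and Smpd3 not in the table used. They were searched for the half-site AGAACA on either strand (TGTTCT on the other) and for ACANNNTGT, the palindromic core of the receptor's full site, which reads the same on both strands. AGAACA was found in 2 of the 6 genes, Fam107a and Sult1a1, and in 18.2% of 27025 genes with a window (16.1% of 32851 windows). ACANNNTGT was found in 1, Fam107a, and in 6.76% of all genes (5.84% of windows). The windows of Fam107a and Sult1a1 are shown because they hold the matches, and that of Slc45a3, the gene with the highest Dex change in WT with 11 arrays, because it holds none; capitals mark the matches.
Fam107a, chr14:8309780-8310029, minus strand: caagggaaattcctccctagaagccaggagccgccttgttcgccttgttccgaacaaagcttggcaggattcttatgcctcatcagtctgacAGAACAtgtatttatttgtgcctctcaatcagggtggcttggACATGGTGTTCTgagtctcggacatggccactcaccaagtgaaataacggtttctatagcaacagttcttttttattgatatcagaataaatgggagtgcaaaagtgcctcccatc
Sult1a1, chr7:126676419-126676668, minus strand: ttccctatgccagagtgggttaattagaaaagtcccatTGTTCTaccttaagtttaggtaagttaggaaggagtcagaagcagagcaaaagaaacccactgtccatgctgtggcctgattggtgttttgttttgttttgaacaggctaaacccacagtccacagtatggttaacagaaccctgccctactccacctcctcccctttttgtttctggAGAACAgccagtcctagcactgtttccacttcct
Slc45a3, chr1:131962665-131962914, plus strand: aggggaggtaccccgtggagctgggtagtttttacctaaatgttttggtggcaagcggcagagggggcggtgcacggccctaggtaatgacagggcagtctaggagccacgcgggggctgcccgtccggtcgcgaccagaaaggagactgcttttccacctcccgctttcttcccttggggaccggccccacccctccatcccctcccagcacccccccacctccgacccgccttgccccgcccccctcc

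In the Fam107a window the core ACANNNTGT overlaps the second half-site, TGTTCT, so that both are printed as 1 run of capitals, and the core ends 108 bases before the start. The first half-site ends 153 bases before it. These matches are those of 2 of the 3 Fam107a starts, which lie 2 bases apart, and the window of the third start holds none. In Sult1a1 the half-sites end 207 and 29 bases before the start, and no core was found. A match is a description of these letters, and binding of the receptor was not measured in these samples.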

How the data were processed

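Each of 12 RNA samples, labelled with Cy3, was run on its own one-colour Agilent array. The authors deposited scanner files whose spot intensity values are linear, made with Feature Extraction 9.5.3.1 per the file headers (9.5 per the submitters' processing notes), background-subtracted and without scaling from array to array. An identical intensity stood in the deposited series matrix for all 45018 spots (relative tolerance 1e-09). Probe positions are those of mouse build mm7 per the file headers, with no exon annotation used.

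Levels are log2 processed signals minus the array's 75th percentile. Control spots (1639) and outlier spots were left out, and replicate spots were averaged. The filter kept 30932 of 41174 probes, those called well above background throughout 1 group or more, and the probe with the highest mean stood for each of 20832 genes. Probes were named through RefSeq accessions (23082), symbols (6582) and synonyms (3073), and 8437 kept the name in the file. Contrasts were fitted in R 4.3.3 with limma 3.58.1 (lmFit and eBayes, a coefficient for each group), with Benjamini-Hochberg adjustment over all genes. The script was tested on simulated data. The alternatives were quantile normalization, normexp background correction (offset 50), no filter on dim probes, the mean over probes, the slide or the replicate number as a block, only the groups compared, and leaving out each array.

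The 8 genes and the lists were chosen with earlier results of these data known. Named relatives are those called in any contrast with 12 arrays or under vehicle with 11. Up to 3 per list with the smallest p for Dex in WT and for Dex in GR-C3 with 11 arrays were added. Of these, Dio3, Sgms1, Sgpl1 and Ctnnb1 had no call and are given only here. Their WT changes with 11 arrays were 0.67, 0.22, -0.34 and 0.12 (limma adjusted p = 0.0656, 0.308, 0.0652 and 0.417). Relatives not described had no call for Dex. The planned test of the 8 genes under vehicle is given as a description, because those arrays entered their choice. The gene whose levels were most like each of the 8 is named for 7; that of Rgcc is not reported here. The number of arrays limits the precision.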

Additional observations from a re-analysis of the deposited data

Results flagged for a closer look

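Sphk1, the kinase that phosphorylates sphingosine, had a Dex change that differed between the genotypes in the fit of 11 arrays without WT vehicle replicate 1: the GR-C3 change minus the WT change was -1.24 (limma adjusted p = 0.0198). With all 12 arrays the difference was -0.36 (limma adjusted p = 0.956). Single outlying arrays were not tested in groups of 3.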

How the results depend on the processing

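Counts are of the 72 tested relatives, called with limma. For Dex in WT, 0 were called with 12 arrays, 1 with normexp, 4 with the slide as a block and 0 to 9 on leaving out 1 array, the 9 without WT vehicle replicate 1. With the 11 other arrays the count was 9, and it was 4 with the slide as a block, 3 with only the groups compared and 4 to 17 on leaving out a further array. For Dex in GR-C3, 0 were called with 12 arrays, 1 with quantile normalization, 3 with the slide as a block, 3 with only the groups compared and 0 to 3 on leaving out 1 array; with 11 arrays 3 were. For the difference between the genotypes, 0 were called with 12 arrays (0 to 1 on leaving out 1 array) and 1 with 11 arrays, where the count was 2 with quantile normalization, 0 with the slide as a block and 0 to 6 on leaving out a further array. Under vehicle, 18 were called with 12 arrays and 8 with the slide as a block; with 11 arrays 21 were, 8 with the slide as a block and 10 to 25 on leaving out a further array. The cause of these shifts was not tested.

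Of the 8 genes, the number with the larger Dex change in WT was 4 to 7 on leaving out 1 of 12 arrays and 7 in each such fit of 11; the 4 came without WT vehicle replicate 2 or 3. Where a group was left with 1 array, that array was assumed to vary like the other groups.

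Arrays with the same replicate number had deviations from their group means with correlations of -0.215 to 0.175. This was checked for vehicle with Dex in each genotype and for the genotypes under vehicle, and not under Dex. In groups of 3 arrays such correlations cannot exclude that the numbers pair samples. With the replicate block, 0, 0, 0 and 21 relatives were called with 12 arrays and 10, 3, 1 and 25 with 11, in the order Dex in WT, Dex in GR-C3, difference and vehicle.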
